A study of Homo sapiens with 3 samples.

Results

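The 40 genes described here encode mitotic kinases, regulators of the anaphase-promoting complex (APC) and proteins of the spindle and of cytokinesis. A member was read by the probe sets that the platform annotation pairs with its symbol alone, and its brightest probe set, by the mean log2 signal over the arrays, stood for it. All 40 genes had such a probe set, and all 40 passed the filter on dim signals, out of 12631 genes that passed it. Expression was measured in U2OS cells, a human osteosarcoma line, by Affymetrix arrays 5 days after retroviral transduction. The 3 groups were cells given Set8_deltaPIP2, a mutant Set8b shielded from destruction through the CRL4-Cdt2 ubiquitin ligase (called stable Set8b here), cells given Wt-Set8b, the degradable wild-type form, and cells given the empty pMSCV-vector. Every group had the same cell line, the same viral backbone and 1 array, so all values come from single samples of 1 line, and no difference has a test or a replicate check. The labels do not say whether transduced cells were selected.

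The deposited arrays had already been scaled to a common trimmed mean, so a likeness in level is no result. Their median deposited intensities were 41.7 with stable Set8b, 42.8 with wild-type Set8b and 38.6 with the vector. The median hybridisation spike-in was at 0.796 times its vector level, and at 0.784 times its wild-type Set8b level, on the stable Set8b array. For poly-A spike-ins the median over vector was 0.467 times with stable Set8b and 0.441 times with wild-type Set8b. The part of these spike-in differences in the results was not tested. The ratio of 3′ to 5′ signal for GAPDH lay between 1.02 and 1.12, and that for beta-actin between 7.33 and 8.0. KMT5A, the gene of Set8, was read by 4 probe sets whose log2 differences for stable Set8b over vector ranged from -0.76 to 0.90 (3 of 4 above 0), so they do not settle the stable Set8b label. Wild-type Set8b over vector was above 0 in all 4, from 0.18 to 1.23, and in all 4 with values as deposited and with arrays centred on their medians too. Stable over wild-type Set8b was below 0 in all 4, from -1.08 to -0.06, and in all 4 by both of those scalings. Of 10 mesenchymal and bone markers 8 passed the filter, with VIM at 13006 (stable Set8b), 11123 (wild-type Set8b) and 12786 (vector), while COL1A2 and TWIST1 did not. The keratins KRT8 and KRT18 were also bright (3449.8 to 6617) and made up most of the epithelial sum given next. The summed signal of the 5 epithelial markers was 10656 with stable Set8b, against 9699 with wild-type Set8b and 8724 with the vector, with KRT19 at the floor on all 3 arrays. EPCAM of the same list went the other way, at 169 with stable Set8b, against 425 with wild-type Set8b and 431 with the vector (log2 -1.35 over vector), and CDH1 was at 1.04 over vector. The mesenchymal and bone markers summed to 43873 with stable Set8b, 32146 with wild-type Set8b and 34862 with the vector. Bright genes weigh most in this sum, such as FN1 at 7339 with stable Set8b, against 3789 with wild-type Set8b and 2515 with the vector, and COL1A1 at 0.26 over vector, while RUNX2, the bone transcription factor, was at -0.62. Of 4 measured leukocyte markers 2 did not pass, PTPRC and CD14, and the 4 summed to 345 with stable Set8b, 297 with wild-type Set8b and 248 with the vector. The other 2 passed and made up most of this sum. CD3D read 200 with stable Set8b, 75.9 with wild-type Set8b and 107 with the vector, and CD79A 117, 184 and 99.7 in that order. Passing the filter does not by itself show that a gene is expressed. The part of these marker levels in the results was not tested.

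Entry into mitosis is driven by CDK1 bound to B-type cyclins, which the CDC25 phosphatases switch on, and by the Aurora and Polo-like kinases. The APC, a ubiquitin ligase activated by CDC20, then marks securin and cyclin B for destruction, which frees separase to part the sister chromatids, and the cell divides by cytokinesis. Many of these genes are transcribed mainly in G2 and M phase through a promoter element called CHR, often near CCAAT boxes, and the same element is bound by the repressive DREAM complex in resting cells. Set8 makes the monomethyl mark of histone H4 lysine 20, which accumulates in G2 and mitosis.

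The promoters of 10 members are shown because the genes differed to unlike extents between the arrays. All 10 hold a CCAAT box in the stretch shown, and 7 also hold a CHR match (TTTGAA or TTCGAA). AURKB, CCNB1 and PTTG1 lack both words there, and other forms of the element were not searched. Each is the 130 bases before the annotated start (RefSeq, GRCh38.p14; of several starts, the one nearest the 5′ end of the gene), with CHR matches (TTTGAA or TTCGAA on either strand) and CCAAT boxes (CCAAT, or ATTGG on the other strand) in capitals. In MKI67 the last base of 1 CHR match is the first of an ATTGG, and in HMMR and PTTG1 a CCAAT and an ATTGG overlap in a single run.
AURKB, chr17:8210250-8210379 (minus strand): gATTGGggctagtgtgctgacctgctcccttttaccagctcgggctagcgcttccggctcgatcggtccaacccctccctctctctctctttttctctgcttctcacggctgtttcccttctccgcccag
MKI67, chr10:128126424-128126553 (minus strand): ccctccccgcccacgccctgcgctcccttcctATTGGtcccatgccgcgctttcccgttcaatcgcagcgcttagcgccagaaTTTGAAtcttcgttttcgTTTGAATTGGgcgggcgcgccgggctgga
ESPL1, chr12:53268169-53268298 (plus strand): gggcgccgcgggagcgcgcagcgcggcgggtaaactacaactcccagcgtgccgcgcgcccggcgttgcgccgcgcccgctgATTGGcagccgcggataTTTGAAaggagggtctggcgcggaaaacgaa
PRC1, chr15:90994536-90994665 (minus strand): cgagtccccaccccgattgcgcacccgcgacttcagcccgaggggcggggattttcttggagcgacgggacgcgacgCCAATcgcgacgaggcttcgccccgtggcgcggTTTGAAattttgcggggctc
CDC20, chr1:43358851-43358980 (plus strand): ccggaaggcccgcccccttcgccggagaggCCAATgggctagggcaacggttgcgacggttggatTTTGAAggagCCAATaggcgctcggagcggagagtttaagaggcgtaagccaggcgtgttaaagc
PLK1, chr16:23678759-23678888 (plus strand): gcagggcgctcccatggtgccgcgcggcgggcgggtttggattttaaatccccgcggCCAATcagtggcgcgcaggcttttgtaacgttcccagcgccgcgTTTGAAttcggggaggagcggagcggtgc
CCNB1, chr5:69167020-69167149 (plus strand): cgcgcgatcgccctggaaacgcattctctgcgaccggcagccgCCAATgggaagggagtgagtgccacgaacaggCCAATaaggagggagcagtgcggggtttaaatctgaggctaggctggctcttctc
HMMR, chr5:163460502-163460631 (plus strand): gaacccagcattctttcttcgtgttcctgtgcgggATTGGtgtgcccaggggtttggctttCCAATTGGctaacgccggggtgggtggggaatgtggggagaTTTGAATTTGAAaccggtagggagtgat
INCENP, chr11:62123881-62124010 (plus strand): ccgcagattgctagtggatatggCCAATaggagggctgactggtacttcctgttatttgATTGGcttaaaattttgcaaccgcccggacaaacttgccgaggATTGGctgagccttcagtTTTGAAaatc
PTTG1, chr5:160421725-160421854 (plus strand): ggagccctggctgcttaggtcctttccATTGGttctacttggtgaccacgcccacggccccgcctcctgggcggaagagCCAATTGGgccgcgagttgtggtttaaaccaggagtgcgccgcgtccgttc

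RefSeq promoter windows (250 bases before to 50 after a start) were at hand for 33 members, 46 windows in all, and not for AURKA, BIRC5, CDCA2, PBK, RACGAP1, TPX2 and UBE2C. A CHR match lay in at least 1 window of 25 of the 33 members (75.76%), against 15.89% of the 10254 genes past the filter that had a window and 19.54% of all 27305 genes with one. CCAAT boxes were in 29 of 33 members (87.88%), against 43.01% and 39.72%. An E2F word (TTTCCCGC, TTTCGCGC, TTTGCCGC or TTTGGCGC, either strand) was in 2 of 33 members, CDK1 and NUSAP1 (6.06%), against 6.63% and 3.99%. A match is a word in the sequence, not a measured binding site. Other forms of CHR were not searched, so a member without a match is not shown to lack the element. The median log2 difference of stable Set8b over vector was -0.85 in the 25 members with a match (8 at least 2-fold lower) and -0.78 in the 8 without (3 at least 2-fold lower), where 5.12% of all genes past the filter were at least 2-fold lower. AURKB, the lowest member, has no match in its windows, while HMMR has 2 matches before its start and INCENP 1, and these had log2 differences over vector of 0.12 (-0.011 with arrays centred on their medians) and 0.06.

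**Figure D1:**
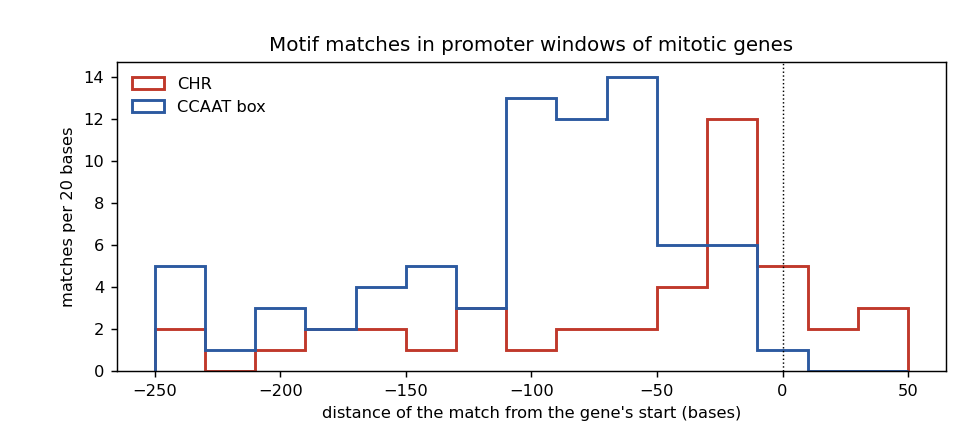
Number of motif matches per 20 bases (y axis) by distance from the gene's start in bases (x axis, negative is before the start) over the 46 promoter windows of 33 members, where windows of the same gene can overlap. Of 42 CHR matches 19 begin within the last 50 bases before the start, and of 75 CCAAT boxes 45 begin between 120 and 40 bases before it.

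With stable Set8b most of these genes had lower signal than with the vector. By the quantile-normalised signal, 37 of 40 members read lowest on the stable Set8b array, 2 lowest on the wild-type Set8b array (INCENP and HMMR) and 1 lowest on the vector array (UBE2C). The share of all genes that read lowest on each array was not counted, so these counts have no background beside them. Stable Set8b over vector had a median log2 difference of -0.87 over the members, with quartiles of -1.08 and -0.62, beside a median of -0.0037 over all genes. At least 2-fold lower were 14 of 40 members, beside 5.12% of all genes, and 0 were at least 2-fold higher, beside 5.72%. Below 0 lay 37 of 40, beside 50.3% of all genes. At 1.5-fold the lower members were 31, beside 14.6%, and at 3-fold 2, AURKB and MKI67, beside 1.2%. Thus the lower signal was spread over most members, and few passed 3-fold. Closest to the 2-fold line were NUSAP1 at -1.03 and PLK4 at -1.04 inside it and DLGAP5 at -0.98 outside it. The SD between probe sets of the same gene was 0.44 log2 over 5952 genes, a measure of probe noise that leaves out the spread between cultures. In a lysate of many cells, fewer cells in G2 and M phase and less mRNA per cell cannot be told apart.

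**Figure D2:**
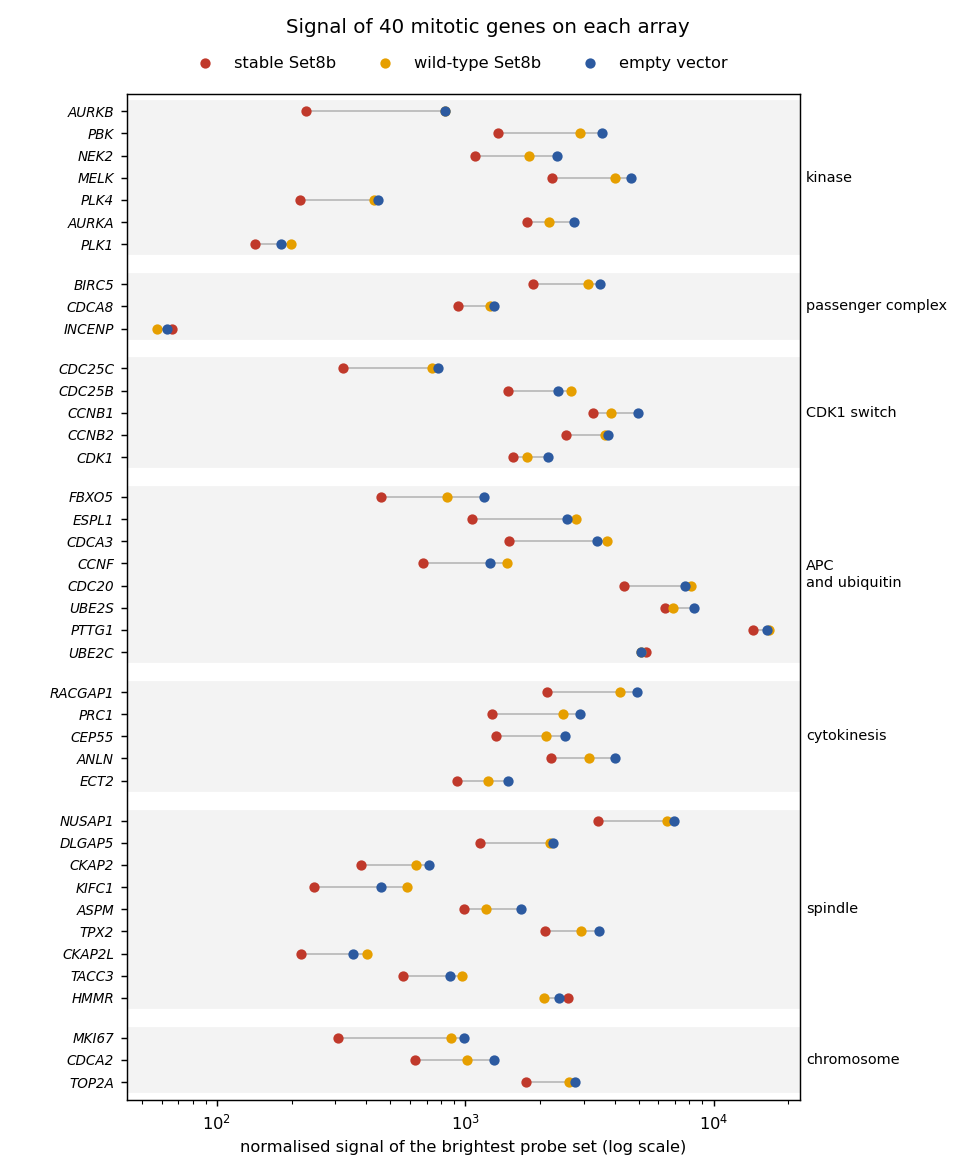
Normalised signal (log-scaled x axis) of the brightest probe set of each of 40 members, by role, on the stable Set8b, wild-type Set8b and vector arrays, 1 array each, with a grey line over their range. The stable Set8b point is the leftmost for 37 genes (not counted over all genes), and the points of INCENP, UBE2C and PTTG1 lie close together.

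The kinases included the members with the most and some of the least difference. AURKB, the catalytic subunit of the chromosomal passenger complex, read 229 with stable Set8b, against 827 with wild-type Set8b and 832 with the vector. It was 3.63-fold lower over vector (log2 -1.86), the lowest of the 40, and only 0.657% of all genes lay lower. PBK, a kinase active in mitotic cells, had 1358 (stable Set8b), 2894 (wild-type Set8b) and 3568 (vector), a log2 difference over vector of -1.39. NEK2, which separates the centrosomes, read 1096 with stable Set8b, against 1807 with wild-type Set8b and 2340.3 with the vector, 2.14-fold lower than vector. MELK, a kinase that peaks in mitosis, read 2226 with stable Set8b, against 4028 with wild-type Set8b and 4669 with the vector (log2 -1.07 over vector). PLK4, the kinase that starts centriole duplication, had 216 (stable Set8b), 429 (wild-type Set8b) and 444 (vector), and its difference over vector of -1.04 lay close to the 2-fold line, with its other probe set at -0.89. In all these kinases the 2 other arrays were closer to each other than to the stable Set8b array. The spindle pole kinase AURKA was less reduced, at 1781 (stable Set8b), 2170.3 (wild-type Set8b) and 2754 (vector), a log2 difference over vector of -0.63. PLK1, which acts from mitotic entry to cytokinesis, was among the dimmer members, at 142 (stable Set8b), 199 (wild-type Set8b) and 182 (vector), and differed from vector by -0.36, less than the spread between probe sets. Of the 7 kinases 5 were at least 2-fold lower than vector, beside 5.12% of all genes.

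The other subunits of the passenger complex did not follow AURKB to the same extent. BIRC5 (survivin), which brings the complex to centromeres, read 1871 with stable Set8b, against 3109 with wild-type Set8b and 3506 with the vector, log2 -0.91 over vector, and its 4 probe sets lay between -1.07 and -0.62. CDCA8 (borealin) had 935 (stable Set8b), 1259 (wild-type Set8b) and 1303 (vector), a difference over vector of -0.48. The scaffold INCENP was the dimmest member, at 65.9 (stable Set8b), 57.5 (wild-type Set8b) and 63.2 (vector), brighter than 10.5% of the genes past the filter, so its difference of 0.06 is measured near the filter level of 37.0. By their brightest probe sets none of these 3 reached 2-fold, but 2 of the 4 BIRC5 probe sets did, both 2.09-fold lower, and so did its brightest one with arrays centred on their medians (BIRC5 at -1.04).

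**Figure D3:**
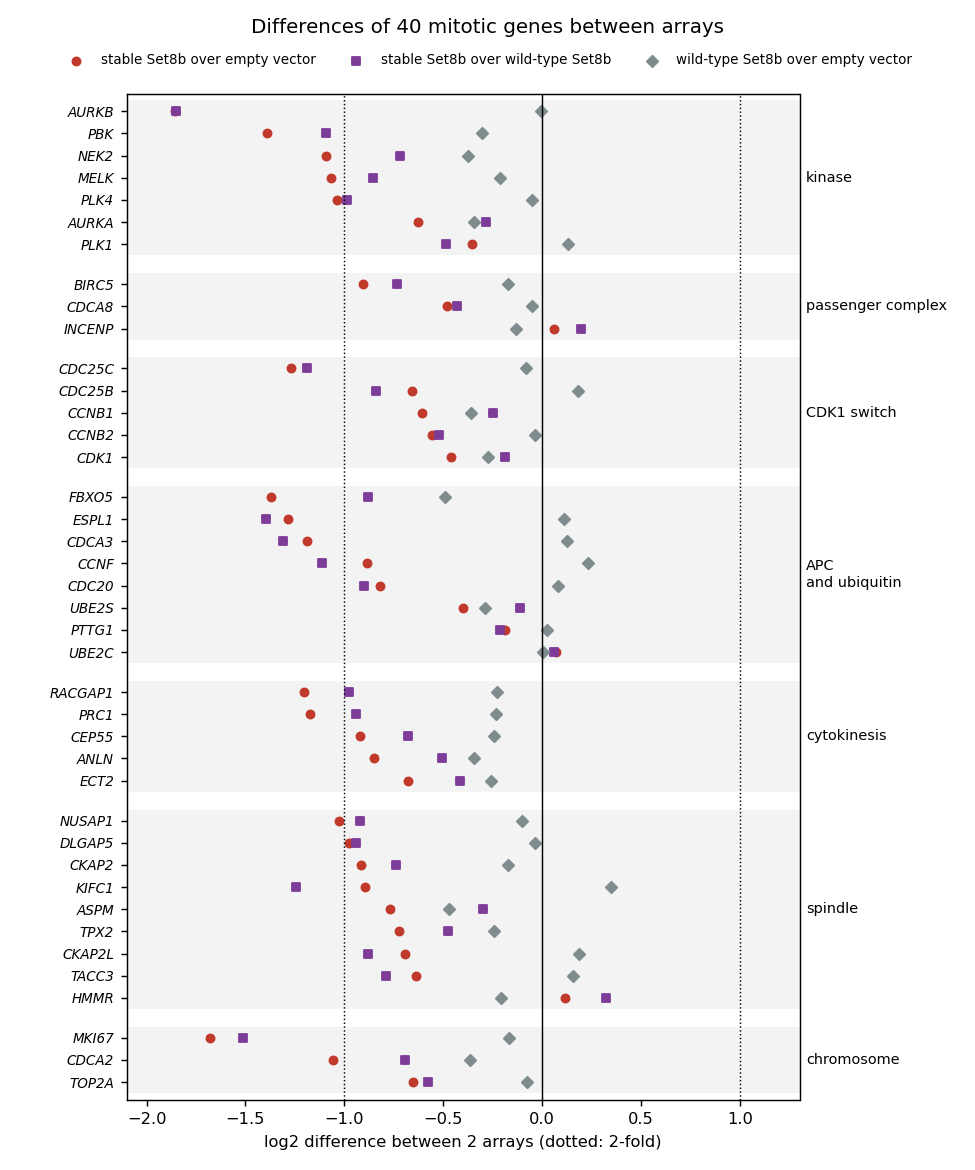
Log2 difference (x axis) of the brightest probe set of each member for stable Set8b over vector, stable over wild-type Set8b and wild-type Set8b over vector, by role, with dotted lines at 2-fold. Points for both stable Set8b comparisons lie left of 0 for most genes. The points for wild-type Set8b over vector lie within 0.5 of 0 for all 40 by the quantile-normalised signal plotted here. With arrays centred on their medians 7 lie beyond it, and the median of all genes is then -0.12.

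The genes of the CDK1 switch were lower with stable Set8b by smaller amounts, apart from CDC25C. CDC25C, a phosphatase that activates CDK1, read 322 with stable Set8b, against 732 with wild-type Set8b and 776 with the vector, 2.41-fold lower than vector (log2 -1.27). Its second probe set past the filter was at -2.0, with a dim stable Set8b signal of 34.1. CDC25B, which starts CDK1 activation at the centrosome, had 1491 (stable Set8b), 2674 (wild-type Set8b) and 2357 (vector), log2 -0.66 over vector. CDK1 itself read 1559.8 with stable Set8b, against 1779 with wild-type Set8b and 2150.1 with the vector, a difference over vector of -0.46, with its 3 probe sets between -0.51 and -0.29. The cyclin gene CCNB2 had 2547 (stable Set8b), 3659 (wild-type Set8b) and 3750.4 (vector), at -0.56 over vector. CCNB1 read 3260.3 with stable Set8b, against 3876 with wild-type Set8b and 4977 with the vector by its brightest probe set (-0.61 over vector), but its other one was at 0.10, with 919 (stable Set8b), 645 (wild-type Set8b) and 855 (vector). The direction of CCNB1 therefore depended on the probe set. The median of these 5 genes was -0.61, and 1 was at least 2-fold lower, beside 5.12% of all genes.

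Among the APC regulators and ubiquitin genes, the inhibitor and the protease differed far more than the conjugating enzymes. FBXO5 (EMI1), which holds the APC inactive before mitosis, read 458 with stable Set8b, against 844 with wild-type Set8b and 1186 with the vector, 2.59-fold lower than vector, with its second probe set at -1.10. ESPL1 (separase), the protease that cuts cohesin, had 1060.3 (stable Set8b), 2786 (wild-type Set8b) and 2581 (vector). Its log2 difference over vector was -1.28, and -1.54 by the other probe set. PTTG1 (securin), the inhibitor of separase, was among the brightest genes, at 14426 (stable Set8b), 16718 (wild-type Set8b) and 16443 (vector), and differed from vector by -0.19. The deposited values of PTTG1, with no normalisation of the bright end, gave -0.36 over vector, and arrays centred on their medians -0.47, so its size depends on the scaling. Its only probe set ends in _x_at, which marks probes that can also read near-identical transcripts, and PTTG1 has close paralogs, so its level is uncertain.

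CDC20, the activator of the APC in mitosis, read 4358 with stable Set8b, against 8133 with wild-type Set8b and 7689.7 with the vector, log2 -0.82 over vector. CDCA3, a trigger of mitotic entry that the APC degrades, had 1495 (stable Set8b), 3709.5 (wild-type Set8b) and 3408 (vector), 2.28-fold lower than vector, and its second probe set was at -1.43. CCNF (cyclin F), the substrate receptor of a different ubiquitin ligase, read 678 with stable Set8b, against 1469 with wild-type Set8b and 1253 with the vector, a difference over vector of -0.89. For these 3 genes the wild-type Set8b signal was slightly above the vector signal by this scaling and the brightest probe sets. With arrays centred on their medians CDC20 was at -0.029 and CDCA3 at -0.038, below vector, and CCNF alone stayed above, at 0.05. By their second probe sets CDCA3 was at -0.10 and CCNF at -0.07 for wild-type Set8b over vector, so this order also depended on the probe set. UBE2C, the enzyme that hands the first ubiquitin to APC substrates, had 5343 (stable Set8b), 5122 (wild-type Set8b) and 5101 (vector), nearly the same on each array. Its log2 difference over vector was 0.07, and -0.11 with arrays centred on their medians, so it has no settled direction. UBE2S, which extends the ubiquitin chains, read 6358 with stable Set8b, against 6871 with wild-type Set8b and 8383 with the vector, at -0.40 over vector. Of the 8 genes of this role 3 were at least 2-fold lower, beside 5.12% of all genes.

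All 5 genes of cytokinesis were lower with stable Set8b by more than 1.5-fold, beside 14.6% of all genes. RACGAP1, a component of centralspindlin, read 2131 with stable Set8b, against 4195 with wild-type Set8b and 4913 with the vector, 2.31-fold lower than vector. PRC1, which bundles the microtubules of the spindle midzone, had 1287 (stable Set8b), 2472 (wild-type Set8b) and 2907 (vector), 2.26-fold lower. Both lay past 2-fold, at log2 -1.21 and -1.18. CEP55, which recruits the abscission machinery to the midbody, read 1324 with stable Set8b, against 2121 with wild-type Set8b and 2512 with the vector (-0.92 over vector). ANLN (anillin), a scaffold of the contractile ring, had 2218 (stable Set8b), 3152 (wild-type Set8b) and 3998 (vector), -0.85 by its brightest probe set and -1.18 by the other. ECT2, the exchange factor that activates RhoA at the cell equator, read 929.8 with stable Set8b, against 1241 with wild-type Set8b and 1486 with the vector, a difference over vector of -0.68. Each of the 5 had its intermediate signal on the wild-type Set8b array.

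The 9 spindle genes had a median of -0.77 over vector, and 8 of them were at least 1.5-fold lower, beside 14.6% of all genes. NUSAP1, a microtubule-bundling protein, was bright, at 3417 (stable Set8b), 6479 (wild-type Set8b) and 6959 (vector), and 2.04-fold lower than vector. DLGAP5, which stabilises microtubules near chromosomes, read 1149 with stable Set8b, against 2205 with wild-type Set8b and 2261 with the vector, just short of 2-fold at -0.98. CKAP2, a spindle microtubule protein, had 381 (stable Set8b), 636 (wild-type Set8b) and 718 (vector) (-0.92 over vector). KIFC1, a minus-end motor that clusters centrosomes, read 246 with stable Set8b, against 583 with wild-type Set8b and 458 with the vector, at -0.90 over vector. KIFC1 was the member whose wild-type Set8b signal lay farthest above the vector signal. TPX2, which activates AURKA on the spindle, differed from vector by -0.72, the spindle protein gene CKAP2L by -0.69 and TACC3, which acts with clathrin on spindle fibres, by -0.64. ASPM, a spindle pole protein, read 987 with stable Set8b, against 1213 with wild-type Set8b and 1683 with the vector, -0.77 over vector, but -1.77 by a dimmer probe set. HMMR, which organises spindle poles, was the exception, at 2591 (stable Set8b), 2071 (wild-type Set8b) and 2391 (vector). Its difference over vector was 0.12, with -0.26 by its other probe set and -0.011 with arrays centred on their medians.

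Of the chromosome genes, MKI67, which coats mitotic chromosomes and marks dividing cells, read 307 with stable Set8b, against 878 with wild-type Set8b and 986 with the vector. It was 3.21-fold lower than vector, and its 4 probe sets lay between -1.68 and -1.05. TOP2A, the topoisomerase that untangles sister chromatids, had 1757 (stable Set8b), 2622 (wild-type Set8b) and 2763 (vector), a smaller difference of -0.65, and -0.76 by the other probe set. CDCA2, which directs a phosphatase to chromosomes at mitotic exit, read 629 with stable Set8b, against 1016 with wild-type Set8b and 1311 with the vector, 2.08-fold lower, with its dimmer probe set at -0.68.

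**Figure D4:**
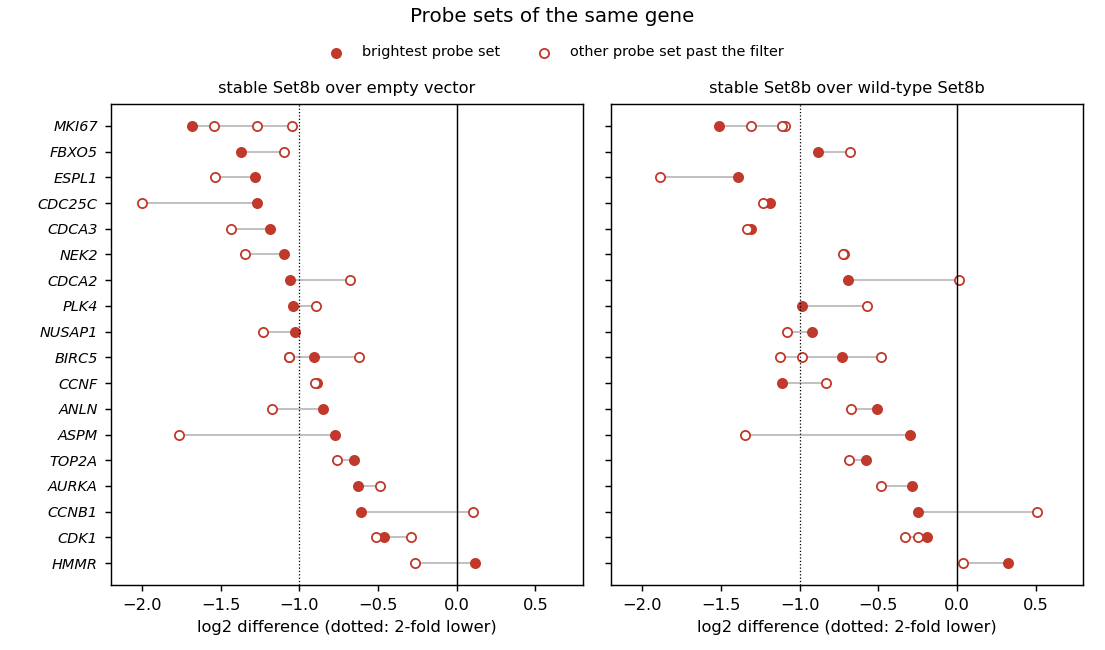
Log2 difference (x axis) of each probe set past the filter for the 18 members that have several, for stable Set8b over vector and over wild-type Set8b, with filled points for the brightest probe set. Over vector all probe sets lie below 0 for 16 of the 18 genes (not counted over all genes), and CCNB1 and HMMR have 1 on each side.

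The members had 76 probe sets, of which 63 passed the filter, and 59 of these 63 lay below 0 for stable Set8b over vector. For the 18 members with several probe sets, the median range between them was 0.27 log2 and the largest, that of ASPM, 1.00. In 7 of the 18 every probe set was at least 2-fold lower, and in 5 more some but not all were, so single calls near 2-fold depended on the probe set. The same shares over all probe sets and over all genes with several were not counted, so these counts have no background beside them. Across the 40 members, which share the arrays, Pearson's r between mean log2 signal and the difference over vector was 0.094.

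Other genes of the same processes, listed by their roles, had medians nearer to 0. Of the 15 genes of the APC core and its activator FZR1, 14 passed the filter. Stable Set8b over vector had a median of -0.17 in them, with 10 below 0, beside 50.3% of all genes, and 0 past 2-fold either way, beside 5.12% lower and 5.72% higher. The core subunit ANAPC7 was lowest at -0.63, CDC27 was at -0.51, ANAPC4 at -0.47 and ANAPC13 highest at 0.50. Of 20 listed kinases, phosphatases and partners of mitotic entry, 18 passed the filter. Their median was -0.40, with 4 at least 2-fold lower and 0 higher, beside the same 5.12% and 5.72% of all genes. These 4 were the phosphatase CDC25A (352 with stable Set8b, 747 with wild-type Set8b and 952 with the vector, log2 -1.43 over vector), cyclin A2 (CCNA2) at -1.32, the CDK1 inhibitor WEE1 at -1.17 and the AURKA partner BORA at -1.05. Genes for both the activators and an inhibitor of CDK1 were therefore lower. The 15 measured effectors of cytokinesis and abscission, such as myosins, septins and ESCRT subunits, had a median of -0.03, with 0 past 2-fold, beside those shares of all genes. Of these CHMP4B was at 0.54, MYH9 at 0.51, CHMP2A at 0.50 and MYH10 at -0.54. These lists leave out other mitotic genes, so they do not show the lower signal to be particular to the members. Among genes of the kinetochore and spindle checkpoint, CENPF was at -1.44 and BUB1B at -1.24 over vector, but BUB3 at -0.14.

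**Figure D5:**
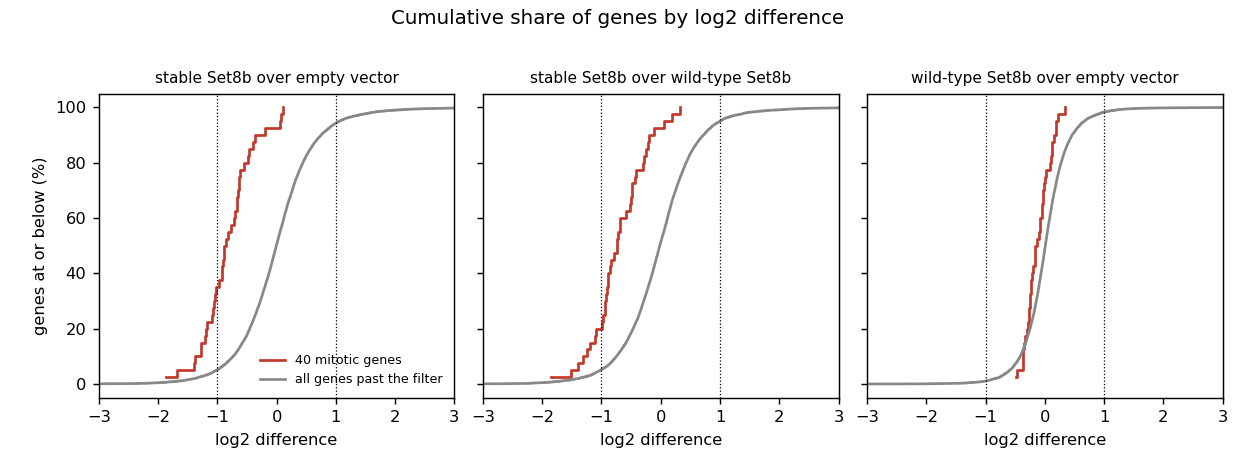
Cumulative share of genes (y axis, percent) by log2 difference (x axis) for the 40 members and for the 12631 genes past the filter, 1 panel per comparison, with dotted lines at 2-fold. The members' curve lies left of that of all genes in both stable Set8b panels, with medians of -0.87 and -0.74, and close to it for wild-type Set8b over vector, with a median of -0.15.

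Stable Set8b was then set beside wild-type Set8b, a comparison that uses the same stable Set8b array. The median log2 difference of the members was -0.74, beside -0.02 over all genes. At least 2-fold lower were 8 of 40, beside 5.23% of all genes, and 0 were at least 2-fold higher, beside 4.96%. Below 0 lay 37 of 40, beside 51.2%. At 1.5-fold the lower members were 24, beside 15%, and at 3-fold 1, AURKB, beside 1.3%. The 8 were AURKB at -1.85, MKI67 at -1.51, ESPL1 at -1.39, CDCA3 at -1.31, KIFC1 at -1.24, CDC25C at -1.19, CCNF at -1.11 and PBK at -1.09. KIFC1 and CCNF, which by their brightest probe sets read higher with wild-type Set8b than with the vector, were 2-fold lower here and not over vector. FBXO5, at -0.88 here and -1.37 over vector, went the other way, as its wild-type Set8b signal was between the others. By its second probe set CCNF was at -0.83 here, short of 2-fold, and at -0.07 for wild-type Set8b over vector. AURKA at -0.29, CDK1 at -0.19, CCNB1 at -0.25, ASPM at -0.30 and UBE2S at -0.11 lay within the spread between probe sets of 0.47. So did CDCA8 at -0.43, ECT2 at -0.42 and PTTG1 at -0.21. By their second probe sets ASPM at -1.35, CCNB1 at 0.51 and AURKA at -0.49 lay beyond it. Above 0 by the brightest probe sets were HMMR at 0.32, INCENP at 0.20 and UBE2C at 0.06, the last at -0.019 with values as deposited.

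Wild-type Set8b over vector gave small differences in the same genes. Their median was -0.15, beside 0.01 over all genes. By the quantile-normalised signal of its brightest probe set, every one of the 40 lay within 0.5 log2 of 0. Beyond 0.5 lay 1 member with values as deposited, FBXO5 at -0.51, and 7 with arrays centred on their medians (FBXO5, ASPM, NEK2, CDCA2, ANLN, CCNB1 and AURKA, all below 0, FBXO5 lowest at -0.66). At least 2-fold lower were 0 members, beside 1.05% of all genes, and at least 2-fold higher 0, beside 1.67%. Below 0 lay 29 of 40, beside 48.7% of all genes, and 34 with arrays centred on their medians. That centring moves the median of all genes to -0.12, and the share of all genes below 0 was not counted for it. The shift of all genes is part of each centred count in this paragraph. The lowest were FBXO5 at -0.49, ASPM at -0.47, NEK2 at -0.37 and CDCA2 at -0.37. The highest were KIFC1 at 0.35, CCNF at 0.23 (-0.07 by its second probe set) and CKAP2L at 0.19. By second probe sets past the filter, CDC25C at -0.77, CDCA2 at -0.69, NEK2 at -0.62 and ANLN at -0.502 lay beyond 0.5. The highest second probe set was that of ESPL1, at 0.35. AURKB, the lowest gene with stable Set8b, was at -0.01 here. The 5 cytokinesis genes lay together between -0.34 and -0.23, while 6 of the 8 APC and ubiquitin genes lay above 0, a number that is 2 with arrays centred on their medians. By the quantile-normalised signal of the brightest probe sets, all these differences are close to or below the spread between probe sets, 0.41 log2 in this comparison.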

How the data were processed

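The authors deposited linear probe-set intensity values for 3 arrays, 54675 per array, and the values show a common 2% trimmed mean of 250.04, so each array had been scaled to it. The sources used here name no software, and no detection calls were used. After 62 control probe sets were left out, arrays were quantile normalized, since their log2 medians spanned 0.146. Signals under the 20th percentile (7.7) were raised to it before log2 was taken. The quantile normalization removes any shift of a whole array and draws the brightest genes together. Probe sets whose mean log2 reached the median of all (37.0 in signal) were kept, and the brightest of those with 1 symbol (22669) stood for each of 12631 genes. Symbols came from the platform annotation, updated by Entrez identifier through RefSeq (41037 of 41091 matched). No test can be had from single arrays, and genes were counted at 2-fold. The number of arrays limits the precision. The rule for named genes allowed all members, KMT5A and up to 4 genes per other list. The cell type markers, and CENPF, BUB1B and BUB3, are named beside it. Members and lists were chosen with earlier results of these data known. Python 3.11.15 with numpy 2.4.6, pandas 2.3.3 and matplotlib 3.10.9 was used, and the steps were tested on simulated data.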

Additional observations from a re-analysis of the deposited data

How the results depend on the processing

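Across 11 alternatives to the normalization, the floor, the filter and the choice of probe set, the median of the members stayed between -1.06 and -0.87 for stable Set8b over vector, between -0.78 and -0.69 for stable over wild-type Set8b and between -0.29 and -0.09 for wild-type Set8b over vector. One of them, a filter at the median of probe sets with 1 symbol, was added after seeing the data. With other floors or none, with no filter and with this added filter, the member medians equalled those of the main settings. The brightest probe sets of the members lie above these floors and this filter, so those settings could not change them. The members at least 2-fold lower were 10 to 19 over vector, beside 3.9% to 9.17% of all genes across these alternatives. Over wild-type Set8b they were 6 to 8, beside 3.75% to 9.58%. The low ends come from second probe sets (18 members), and the 6 also from leaving out _x_at and _s_at probe sets (26 members). The high end, 19, comes from arrays centred on their medians, where 6.31% of all genes were at least 2-fold lower, against 5.12% by the main settings. That centring shifts the median of all genes over vector to -0.11 (stable Set8b) and -0.12 (wild-type Set8b), and the member median of the wild-type Set8b array over vector is then -0.29. With the threshold at 1.5-fold the lower members were 31 over vector and 24 over wild-type Set8b, beside 14.6% and 15% of all genes. At 3-fold they were 2 and 1, beside 1.2% and 1.3%. Of 972 recomputed differences of single members 956 moved by less than the spread between probe sets and 0 past 2-fold changed sign. The 16 others were of ASPM, CCNB1, CDC25C, CDCA2, ESPL1 and MKI67, and came from the choice of probe set. Many of the 972 could not move, so the 956 overstate how stable the values are. The floor settings and the added filter left each member's brightest probe set as it was. A mean over probe sets changed nothing for members with only 1 past the filter. CCNB1 over wild-type Set8b was 0.51 by its second probe set. No paired analysis was possible because each group has 1 array. Each value rests on 2 arrays, and signals near the filter level, such as those of INCENP, cannot be told from background without detection calls. The leukocyte markers CD3D and CD79A passed the filter too, so this limit reaches somewhat brighter signals as well.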
